A study of Mus musculus with 6 samples.

Results

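Marker genes of the choroid plexus were followed in the hippocampal transcriptomes of the aging (22M) and the young (3M) mouse. The 10 genes were Ttr, Folr1, Kl, Clic6, Aqp1, Otx2, Sostdc1, Enpp2, Igf2 and Prlr, of 13321 genes in the deposited table, and all 10 were present in it and passed the filter on low values. They were taken by gene name, and the level of a gene was the sum of the FPKM of its protein-coding transcripts (FPKM are fragments divided by the length of the transcript and by the mapped fragments of the library). The genes were selected on their FPKM in these 6 libraries, with the way they vary together already known. Their levels, age differences and correlations are therefore given as a description with no test.

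All mice were male, wild type (WT) and of the inbred strain C57 BL/6, and the methods describe behavioural tests before the brains were taken. The 22M group held the libraries 72, 76 and 78 from mice aged 22 months, and the 3M group held J11, J13 and J15 from mice aged 3 months. Polyadenylated RNA was enriched with oligo beads and made into stranded libraries. Neither the labels nor the methods state that the 3 libraries of a group came from separate mice, so a p-value refers to differences among libraries, which may be technical.

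The choroid plexus is a folded sheet of epithelium around leaky capillaries that hangs into the ventricles of the brain and makes the cerebrospinal fluid. In the lateral ventricle it lies against the fimbria and the hippocampus, and it is not part of the hippocampus itself. Its epithelial cells pump ions and water into the ventricle, carry vitamins and hormones across, and secrete carrier proteins and growth factors, transthyretin foremost. In bulk RNA such as that measured here, fewer cells of a type and less RNA per cell cannot be told apart.

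Sequences around start sites are printed for Kl, which has a single transcript, and for transcripts of Otx2 and Igf2 whose levels are described further on. The reference held windows of 300 bases (250 before and 50 from the start site on) for 5 of the members, Kl, Aqp1, Igf2, Otx2 and Prlr, with 13 windows in all. The 4 below are RefSeq sequences on GRCm38.p6, 5′ to 3′ on the strand of the gene. Otx2-201 and Igf2-201 were among the transcripts with lower levels in all 22M than in all 3M libraries, and Igf2-204 carried most of the Igf2 level of library 76. Capitals mark GGATTA or its reverse complement TAATCC, the core bound by Otx2, and TGACC or its reverse complement GGTCA, the half-site of nuclear receptors such as those for thyroid hormone and retinoic acid.
Kl-201, chr5:150952357-150952656, plus strand: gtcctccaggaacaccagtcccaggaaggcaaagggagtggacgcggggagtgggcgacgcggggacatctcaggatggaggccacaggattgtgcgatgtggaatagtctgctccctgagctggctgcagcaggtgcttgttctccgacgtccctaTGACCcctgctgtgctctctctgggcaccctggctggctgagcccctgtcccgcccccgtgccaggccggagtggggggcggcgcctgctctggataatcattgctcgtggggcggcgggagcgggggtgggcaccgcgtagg
Otx2-201, chr14:48665060-48665359, minus strand: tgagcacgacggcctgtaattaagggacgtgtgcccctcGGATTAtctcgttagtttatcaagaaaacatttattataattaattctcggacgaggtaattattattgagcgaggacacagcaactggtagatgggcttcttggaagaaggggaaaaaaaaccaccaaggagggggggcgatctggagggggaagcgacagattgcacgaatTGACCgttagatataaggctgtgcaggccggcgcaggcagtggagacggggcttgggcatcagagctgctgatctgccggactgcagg
Igf2-201, chr7:142657447-142657746, minus strand: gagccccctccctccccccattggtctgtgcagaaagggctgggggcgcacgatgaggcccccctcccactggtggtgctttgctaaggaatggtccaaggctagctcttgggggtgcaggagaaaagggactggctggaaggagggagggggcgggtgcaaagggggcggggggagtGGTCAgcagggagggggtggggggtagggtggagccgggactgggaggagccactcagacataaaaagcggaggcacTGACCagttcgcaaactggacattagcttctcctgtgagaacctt
Igf2-204, chr7:142661222-142661521, minus strand: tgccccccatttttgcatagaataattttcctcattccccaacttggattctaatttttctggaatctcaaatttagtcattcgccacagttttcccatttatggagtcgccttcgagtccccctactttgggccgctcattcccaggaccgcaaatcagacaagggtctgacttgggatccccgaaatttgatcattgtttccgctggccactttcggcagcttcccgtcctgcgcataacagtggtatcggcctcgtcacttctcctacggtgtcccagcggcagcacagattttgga
With the start site as position 0, the Kl window had a TGACC at -93, and the Otx2-201 window had a GGATTA at -211 and a TGACC at -38. The Igf2-201 window had a GGTCA at -72 and a second half-site after the start, and the Igf2-204 window had none of these letters. No 2 of these motifs overlapped in the printed windows. Over the 13 windows, 2 held GGATTA or TAATCC, against 7.06% of 32851 RefSeq promoter windows, and 4 held TGACC or GGTCA, against 40.5%. The E-box CANNTG, the site of helix-loop-helix factors, stood in 10 of the 13 windows, against 72.3% of all. These matches describe letters in short windows and say nothing of binding.

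The libraries themselves were first compared by measures of the whole table. The FPKM summed to between 318024 and 349911 in the 22M libraries and between 344405 and 358073 in the 3M libraries, and the sequencing depth is unknown because FPKM carry no counts. Genes that mark hippocampal neurons were present in full (17 of 17 listed), with a summed level of 479 to 515 FPKM in 22M and of 379 to 602 FPKM in 3M. At the study's thresholds (limma P under 0.05 and a fold beyond 1.5), 8.3% of the 13041 genes tested differed between the ages, 27% had an unadjusted p under 0.05, 2.13% passed the adjusted p, and in 34.4% the levels of the ages did not overlap. For the choroid plexus genes 2 libraries stood apart, both of 22M, with 72 at the top and 78 at the bottom.

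Transthyretin, the carrier of thyroid hormone and of retinol-binding protein in the cerebrospinal fluid, was by far the most abundant of the 10. Ttr (chromosome 18, 20665250 to 20674324 on the plus strand, 1 transcript) was at 2669, 1098 and 122 FPKM in 72, 76 and 78, against 1860, 1566 and 2398 FPKM in J11, J13 and J15. Thus 1 aging library exceeded every young library, the others lay below all of them, and 78 had 4.56% of the level of 72. Ttr held 0.763%, 0.338% and 0.0383% of the FPKM sum in 72, 76 and 78, against 0.525%, 0.437% and 0.696% in J11, J13 and J15. It ranked 14th among all genes in 5 of the 6 libraries and 342nd in 78. The difference of 22M from 3M on the log2(FPKM + 0.5) scale was -1.43 (SE 1.03), with an SD of 2.29 among the 22M and of 0.31 among the 3M libraries.

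**Figure D1:**
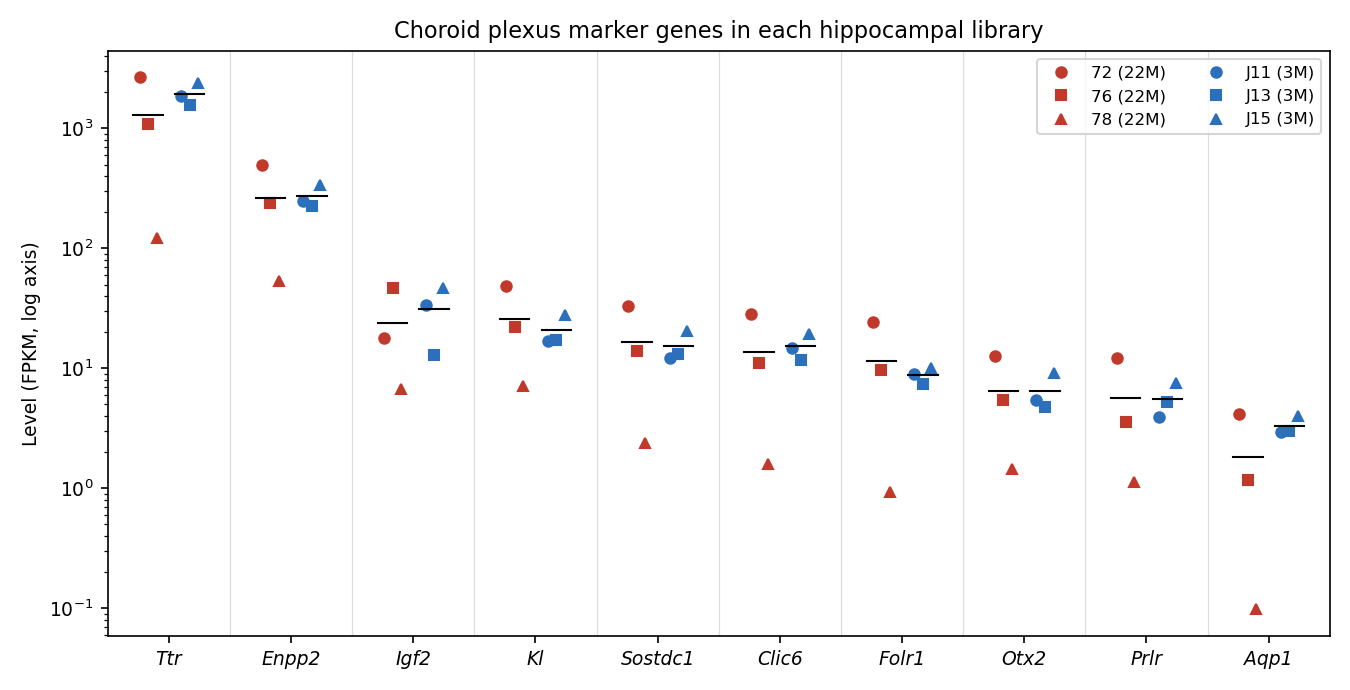
FPKM (log axis) of the 10 marker genes in the libraries of 22M (red, left) and 3M (blue, right), with each library as a point and the mean of each age as a bar. Library 72 is the highest of the 6 for 9 genes and 78 the lowest for all 10, and the 3M libraries lie between them in each gene but Igf2.

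Like Ttr, the other secreted products had their highest level in 72 and their lowest in 78, except that Igf2 was highest in 76. Enpp2 (chromosome 15, 54838901 to 54952892, minus strand) encodes autotaxin, the enzyme that makes lysophosphatidic acid from lysophosphatidylcholine, and is also expressed by oligodendrocytes. Enpp2 was at 498, 237 and 53.2 FPKM in 72, 76 and 78, against 247, 227 and 340 FPKM in J11, J13 and J15. Sostdc1 (chromosome 12, 36314139 to 36318452, plus strand), a secreted antagonist of BMP and WNT ligands, was at 33.0, 14.1 and 2.37 FPKM in 22M, against 12.3, 13.1 and 20.5 FPKM in 3M. In both genes library 76 was inside the range of 3M, while 72 was above it and 78 far below it. Kl (chromosome 5, 150952607 to 150993817, plus strand) encodes klotho, a co-receptor of FGF23 whose outer part is shed into blood and cerebrospinal fluid. Kl was at 48.8, 21.9 and 7.11 FPKM in 72, 76 and 78, against 17.1, 17.4 and 27.6 FPKM in J11, J13 and J15. It averaged 26.0 ± 21.1 FPKM in 22M and 20.7 ± 6.02 FPKM in 3M (SD, n = 3 each), and both SDs exceeded the difference of the means.

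Igf2 (chromosome 7, 142650766 to 142661305, minus strand) encodes insulin-like growth factor 2, which the choroid plexus and the meninges secrete. It was at 17.95, 46.5 and 6.74 FPKM in 72, 76 and 78, against 33.9, 12.96 and 46.5 FPKM in J11, J13 and J15. Igf2 was the only member whose highest value was not in 72, and 72 held 0.577 times the mean of 3M. Library 78 was still the lowest. Igf2 was also the only member with a wide spread among the young libraries, an SD of 0.94 on the log2 scale, against 0.20 to 0.46 for the other members.

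The transporters and channels of the set included the 2 genes with the largest folds between 72 and 78, Aqp1 and Folr1. Folr1 (chromosome 7, 101858331 to 101870788, minus strand), the folate receptor alpha that carries folate from blood to cerebrospinal fluid, was at 24.2, 9.66 and 0.929 FPKM in 72, 76 and 78, against 8.99, 7.45 and 9.99 FPKM in J11, J13 and J15. Aqp1 (chromosome 6, 55336432 to 55348555, plus strand), the water channel of the apical membrane, was at 4.16, 1.16 and 0.0984 FPKM in 22M, against 2.93, 3.00 and 4.01 FPKM in 3M. Clic6 (chromosome 16, 92498134 to 92541243, plus strand), of the family of chloride intracellular channels, was at 28.3, 11.05 and 1.59 FPKM in 22M, against 14.8, 11.8 and 19.3 FPKM in 3M. In all of these 72 was above the highest and 78 below the lowest young library. Library 76 was inside the range of 3M for Folr1, just under it for Clic6, and at 0.352 times the mean of 3M for Aqp1.

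The receptor and the transcription factor of the set moved in the same way. Prlr (chromosome 15, 10177655 to 10349180, plus strand), the receptor for the hormone prolactin, was at 12.1, 3.60 and 1.13 FPKM in 72, 76 and 78, against 3.97, 5.23 and 7.58 FPKM in J11, J13 and J15. Otx2 (chromosome 14, 48657679 to 48673819, minus strand), the homeodomain factor needed to form and keep the choroid plexus, was at 12.6, 5.48 and 1.45 FPKM in 22M, against 5.46, 4.80 and 9.21 FPKM in 3M. Library 72 was the highest of the 6 for both, and 78 the lowest.

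Between the ages the levels of every member overlapped. The log2 differences of 22M from 3M were Ttr -1.43, Aqp1 -1.18, Clic6 -0.81, Igf2 -0.60, Enpp2 -0.53, Sostdc1 -0.46, Prlr -0.43, Folr1 -0.38, Otx2 -0.33 and Kl -0.02, with SEs of 0.63 to 1.03. Their median was -0.50, beside -0.05 over all genes tested. By limma 0 of the 10 passed the study's thresholds, 0 the adjusted p and 0 an unadjusted p under 0.05 (27% of all genes tested), and 0 had levels that did not overlap. Limma without a trend also put 0 past the study's thresholds. These counts rested on the aging libraries 72 and 78. Library 72 was the highest for 9 members and 78 the lowest for all 10. Leaving either out thus moves their 22M mean by construction, and the calls that follow are no test. Without 72, Ttr (log2 difference -2.38), Aqp1 (-1.92) and Prlr (-1.19) passed the study's thresholds with lower levels in 22M. None of these genes passed the adjusted p. With each library left out in turn, 455 to 790 of all genes were lower at the study's thresholds. Without 78, 0 members passed and the median difference was 0.32. Without 72 and 78 together, the log2 differences were -0.80 for Ttr and -1.18 for Aqp1, with 1 aging library left.

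The spread within 22M was the widest feature of these genes. The SD among the aging libraries, on the log2 scale, ran from 1.35 for Igf2 to 2.29 for Ttr, and all 10 members were in the top 1% of the 13041 genes tested. Ttr stood at rank 7 and Folr1 at rank 14. The median SD of the members was 1.56 among the 22M and 0.36 among the 3M libraries, beside 0.16 and 0.17 over all genes. In FPKM, 72 exceeded 78 by 42.3-fold for Aqp1, 26.1-fold for Folr1, 21.9-fold for Ttr, 17.8-fold for Clic6, 13.9-fold for Sostdc1 and 10.7-fold for Prlr. The fold was 9.36 for Enpp2, 8.69 for Otx2, 6.87 for Kl and 2.66 for Igf2. Against the mean of 3M, library 78 held between 2.97% (Aqp1) and 34.4% (Kl) of the level. On the log2(FPKM + 0.5) scale 99 genes were at least 4-fold higher in 72 than in 78, 0.759% of all genes, and 9 of the members were among them.

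The members therefore varied together between libraries, as the choice of the set had used. Over the 45 pairs, the median Pearson coefficient of the log2 values across the 6 libraries was 0.95 and the median Spearman coefficient 0.83. All values of a library share its scaling, and the median Pearson coefficient over all pairs of tested genes was 0.02. Among the 36 pairs without Igf2, Pearson coefficients ran from 0.82 (Kl and Aqp1) to 0.996 (Sostdc1 and Enpp2). The 9 pairs with Igf2 gave 0.45 to 0.67. Library 72 and library 78 carry much of this. Over the other 4 libraries the median was 0.69 and the range -0.25 to 0.99, with Folr1 and Aqp1 at -0.17 and Kl and Aqp1 at 0.11.

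Other genes of the choroid plexus, a list of 36 that held none of the members, moved with them. Of these genes 32 were in the table, all 32 had their lowest level in 78, and 24 had both the highest level in 72 and the lowest in 78. This order of the libraries was found in 9 of the 10 members and in 3.02% of all genes tested. The folds between 72 and 78 varied widely among them. Kcnj13, an inward rectifier potassium channel of the apical membrane, was at 34.1, 12.01 and 1.71 FPKM in 72, 76 and 78, against 17.5, 16.0 and 30.1 FPKM in J11, J13 and J15. Slc4a5, a sodium bicarbonate cotransporter, was at 11.99, 3.43 and 0.236 FPKM in 22M, against 4.03, 3.96 and 5.57 FPKM in 3M. Kcne2, a potassium channel subunit, was at 15.9, 7.47 and 0.361 FPKM in 22M, against 8.63, 9.04 and 13.5 FPKM in 3M. Library 72 exceeded 78 by 50.7-fold for Slc4a5, 44.0-fold for Kcne2 and 20.0-fold for Kcnj13.

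Genes of the epithelial barrier and of secretion were lowest in 78 too. Cldn2, the claudin of the leaky tight junction of this epithelium, was at 11.4, 3.59 and 0.551 FPKM in 72, 76 and 78, against 5.15, 5.39 and 7.13 FPKM in J11, J13 and J15. The secreted augurin gene 1500015O10Rik was at 41.6, 17.1 and 2.33 FPKM in 22M, against 36.5, 26.4 and 44.8 FPKM in 3M, and like Calml4 it was among the 8 genes of the list whose highest level was not in 72. Ace, the angiotensin converting enzyme, was at 34.2, 15.3 and 4.02 FPKM in 22M, against 13.9, 12.8 and 15.01 FPKM in 3M. The narrowest spreads were those of Slc29a4, a monoamine transporter also found in neurons (2.10-fold from 78 to 72), and of the carbonic anhydrase Car12 (2.35-fold). By limma 0 of the 32 genes passed the study's thresholds in either direction, 0 had an unadjusted p under 0.05 (27% of all genes tested), and their median log2 difference was -0.40. Without 72, 11 of them were lower at the study's thresholds, among them Rdh5, Steap1, Kcnj13 and Cldn2. Without 78, 3 were higher (Slc13a4, F5 and Stra6). None of these genes passed the adjusted p. With each library left out in turn, 455 to 790 of all genes were lower and 448 to 654 higher at the study's thresholds.

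**Figure D2:**
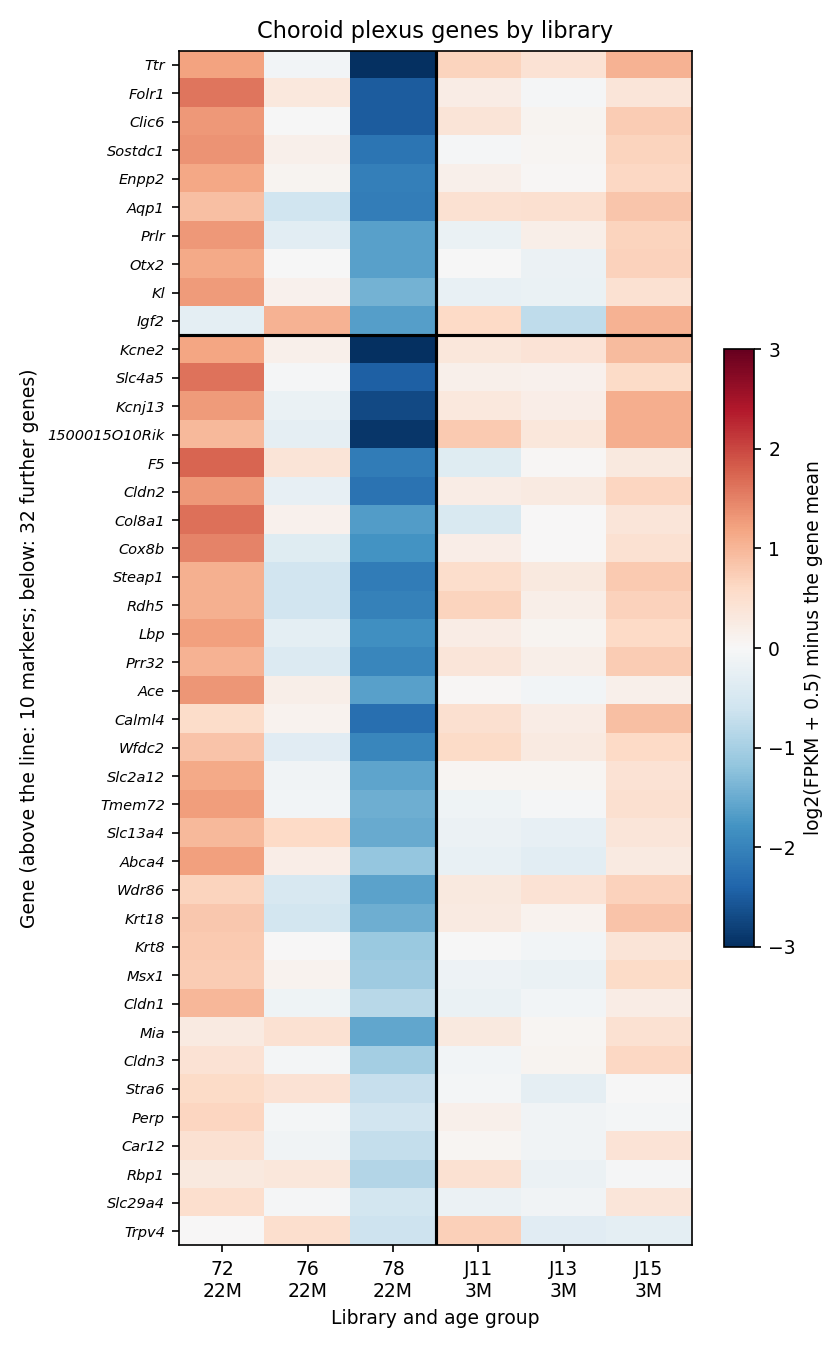
log2(FPKM + 0.5) minus the mean of the gene over the 6 libraries (colour, red higher and blue lower), for the 10 markers above the line and 32 further choroid plexus genes below it, with 22M at the left and 3M at the right. The column of 78 is blue in every row and the column of 72 is red in nearly all, while Igf2 and Trpv4 depart from the rest.

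Most, but not all, of the genes closest in pattern to the members were on the list of other choroid plexus genes. Among 2669 genes that averaged 1 FPKM or more and had a log2 range of 1 or more, the 10 with the highest Pearson coefficient with the mean of the members over 6 libraries were Kcnj13 (0.99), Drc7, Slc16a9, Slc4a5, Kcne2, Angptl2, Cldn2, Krt8, Dnali1 and Lbp (0.98). Of these 10, 6 were on the list of other choroid plexus genes. Drc7 and Dnali1 encode parts of motile cilia, Slc16a9 a monocarboxylate transporter and Angptl2 a secreted angiopoietin-like protein. Drc7 was at 7.63, 3.47 and 0.79 FPKM in 72, 76 and 78, against 3.96, 3.85 and 7.12 FPKM in J11, J13 and J15. Over all genes 207 had a coefficient over 0.9, which is 1.59%, and 26 of the 32 other choroid plexus genes were among those beyond it.

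Neighbouring cell types were measured beside the members, and their part in the result was not tested. Ependymal cells, which line the ventricle and bear motile cilia, shared part of the order: 6 of 17 genes were highest in 72 and lowest in 78, and 0 passed the study's thresholds by limma, with 1 unadjusted p under 0.05 (Ccdc39). Their summed level was 107, 77.8 and 48.3 FPKM in 72, 76 and 78, against 102, 73.5 and 88.2 FPKM in J11, J13 and J15. Foxj1, the factor of motile ciliogenesis, was at 8.44, 5.37 and 3.74 FPKM in 22M, against 7.09, 5.32 and 7.44 FPKM in 3M, a narrower range than that of any member. On the log2(FPKM + 0.5) scale none of the 17 ependymal genes was 4-fold higher in 72 than in 78, against 21 of the 32 other choroid plexus genes.

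Fibroblast genes of the meninges had another order. Of 19 tested, 16 had their highest level in 76, and 0 were highest in 72. Their summed level was 562, 1127 and 546 FPKM in 72, 76 and 78, against 590, 764 and 537 FPKM in J11, J13 and J15. Igf2 too was high in 76, yet it was as high in J15, where the meningeal genes were not. Its Pearson coefficient over the 6 libraries was 0.34 with the mean of the meningeal genes and 0.62 with that of the other choroid plexus genes. The coefficients of the other members with the choroid plexus genes ran from 0.947 (Aqp1) to 0.998 (Enpp2). With the mean of the ependymal genes they ran from 0.81 (Prlr) to 0.92 (Clic6), and that of Igf2 was 0.65. Bgn and Fmod, small proteoglycans of connective tissue, were higher in the 22M libraries by the study's thresholds, and 0 of the 19 rose at the adjusted p.

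**Figure D3:**
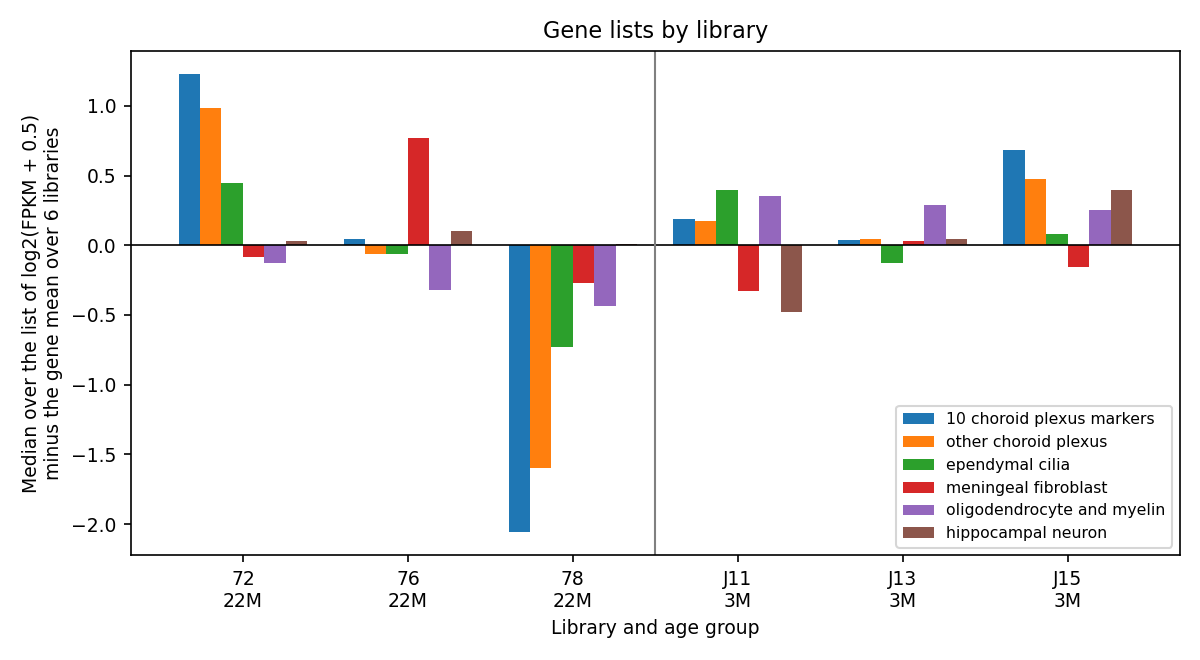
Median over each gene list of log2(FPKM + 0.5) minus the gene mean (bars), by library, with 22M at the left and 3M at the right. The choroid plexus lists are at 1.23 and 0.99 in 72 and at -2.06 and -1.60 in 78, the meningeal list peaks in 76 at 0.77, and the oligodendrocyte list is below 0 in every 22M library and above 0 in every 3M library.

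Lists for oligodendrocytes, for the thalamus and habenula, for red blood cells and for capillaries were read in the same fit. Of 19 genes of oligodendrocytes and myelin, 10 passed the study's thresholds with lower levels in 22M and 6 of them fell at the adjusted p, among them Mog, Cldn11, Cnp and Mag. Mog was at 22.6, 20.2 and 17.6 FPKM in 72, 76 and 78, against 41.2, 44.0 and 39.4 FPKM in J11, J13 and J15. Of 16 genes of the thalamus and habenula, 10 were lower and 4 of them fell (Prkcd, Tnnt1, Shox2 and Ramp3). The median log2 difference of 72 from 78 was 0.33 for the oligodendrocyte genes and 0.20 for the thalamic genes, against 3.09 for the members. Genes of red blood cells rose in 22M (5 of 6), and 78 was the lowest of the aging libraries for Hba-a2, with 878, 837 and 526 FPKM in 72, 76 and 78, against 234, 211 and 209 FPKM in J11, J13 and J15. Over the 17 alternatives these counts at the adjusted p ran from 0 to 6 for the oligodendrocyte, 0 to 4 for the thalamic and 0 to 5 for the red blood cell genes. Of 11 capillary genes, 0 passed the study's thresholds or the adjusted p, and only 1, Plvap, was highest in 72 and lowest in 78. Plvap, which forms the diaphragms of fenestrated vessels, was at 6.39, 5.97 and 3.99 FPKM in 22M, against 5.41, 6.30 and 6.17 FPKM in 3M. The ages did not overlap in 2 of the 11, Cldn5 (lower in 22M) and Flt1 (higher), against 34.4% of all genes tested.

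Calls among the ligands, receptors and partners of the members are read beside those of all genes. At the study's thresholds 8.3% of all genes tested passed, and 27% had an unadjusted limma p under 0.05. Each list is small, so its count says little by itself. For Ttr, 0 of 9 genes of thyroid hormone and retinol handling passed the study's thresholds by limma (1 had an unadjusted p under 0.05, the receptor gene Thrb). For Folr1, 0 of 6 genes of folate transport and use passed, and 0 had an unadjusted p under 0.05. The same counts held for 6 genes of klotho and its FGF partners.

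Among 10 genes of IGF signaling, 2 passed the study's thresholds with higher levels in 22M, the insulin receptor gene Insr and the binding protein gene Igfbp5, and 0 rose at the adjusted p. Igfbp2, a binding protein that the choroid plexus makes, was at 49.6, 24.4 and 11.4 FPKM in 72, 76 and 78, against 41.7, 42.8 and 49.8 FPKM in J11, J13 and J15, with 78 again the lowest. Insr went the other way, with 2.55, 5.94 and 5.94 FPKM in 22M, against 1.37, 0.693 and 1.02 FPKM in 3M. Of the 5 prolactin partners, 1 was lower (Cish, a STAT5 target that restrains cytokine receptors). Of the 6 genes of lysophosphatidic acid, 1 was lower (Plpp2, a lipid phosphatase). Of 8 BMP and WNT genes, 1 was higher (Lrp4, which binds Sostdc1). None of these 3 passed the adjusted p.

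Of 11 water and ion transport genes, 1 was higher and rose at the limma adjusted p. It was Slc4a10, a sodium bicarbonate transporter of the choroid plexus and of neurons, at 43.1, 42.5 and 49.0 FPKM in 72, 76 and 78, against 23.5, 27.7 and 28.7 FPKM in J11, J13 and J15 (log2 difference 0.74, SE 0.11, limma adjusted p = 0.0407). That adjusted p ran from 0.0327 to 0.343 over 17 alternative settings, and 7 of them passed. Slc4a10 was highest in 78, the library with the lowest members. Of 4 tested partners and targets of Otx2, 1 was lower and fell, Gadd45b, with 3.89, 4.50 and 4.20 FPKM in 22M, against 8.25, 10.4 and 8.91 FPKM in 3M (log2 difference -1.04, SE 0.13, limma adjusted p = 0.0345, and 0.0321 to 0.299 over the alternatives, of which 8 passed).

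To compare the members with each other, each was divided by Ttr of the same library, a denominator chosen after the levels were seen. FPKM ratios between genes depend on length and base composition, so they were read between libraries only. Enpp2 was at 187, 216 and 437 FPKM per 1000 FPKM of Ttr in 72, 76 and 78, against 133, 145 and 142 in J11, J13 and J15. Folr1 was at 9.07, 8.80 and 7.63 in 22M, against 4.84, 4.75 and 4.17 in 3M. Library 72 and library 78, which were 26.1-fold apart in the level of Folr1, thus had nearly the same ratio of Folr1 to Ttr, and both exceeded all young libraries. Clic6 was at 10.6, 10.1 and 13.1 in 22M, against 7.97, 7.56 and 8.04 in 3M, and Sostdc1 at 12.4, 12.8 and 19.5 in 22M, against 6.61, 8.36 and 8.55 in 3M. Kl was at 18.3, 20.0 and 58.4 in 22M, against 9.17, 11.1 and 11.5 in 3M, and Otx2 at 4.74, 4.99 and 11.9 in 22M, against 2.93, 3.06 and 3.84 in 3M.

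These 6 of 9 members had ratios to Ttr higher in all 22M than in all 3M libraries, as had 3.65% of the 13040 other genes tested. Ttr was highest in 72, so a gene of equal level in every library has its lowest ratio there and cannot qualify. The 3.65% thus depends on the order of Ttr, with which the members were known to vary, and is no measure of an age effect. Aqp1 went the other way, with 1.56, 1.06 and 0.808 FPKM per 1000 FPKM of Ttr in 72, 76 and 78, against 1.58, 1.91 and 1.67 in J11, J13 and J15. Igf2 and Prlr overlapped between the ages. The median log2 difference of the 9 ratios was 0.89. With each library corrected for the length and GC content of transcripts, the 6 ratios were still higher in 22M without overlap, the median was 0.68, and Aqp1 overlapped. The corrected ratios were formed from log2(FPKM + 0.5), the uncorrected ones from FPKM alone. On the log2(FPKM + 0.5) scale without the correction, the difference of 22M from 3M was -1.18 for Aqp1 and -1.43 for Ttr. The overlap of Aqp1 therefore cannot be credited to length and GC content, because the added 0.5 changed as well. Of the 32 other choroid plexus genes, 13 had a ratio to Ttr higher in 22M without overlap and 1 lower. These counts were 9 and 0 after the correction, with the same 0.5 added.

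All of these ratios share Ttr, so that a lower Ttr alone would raise them together. The share of pairs that separated the ages was not particular to the members either: of their 45 pairs 19 had ratios that did not overlap between the ages, and 12 of the 36 pairs without Ttr, against 30% of all pairs of tested genes above 0 in every library. Aqp1 was in 8 such pairs, always on the lower side in 22M, Ttr in 7 and Kl in 6, always on the higher side for Kl. Igf2 was in 0 of its 9 pairs. Among the young libraries the ratio of Enpp2 to Ttr stayed at 140 ± 6.48 and that of Clic6 at 7.86 ± 0.261 FPKM per 1000 (SD, n = 3).

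**Figure D4:**
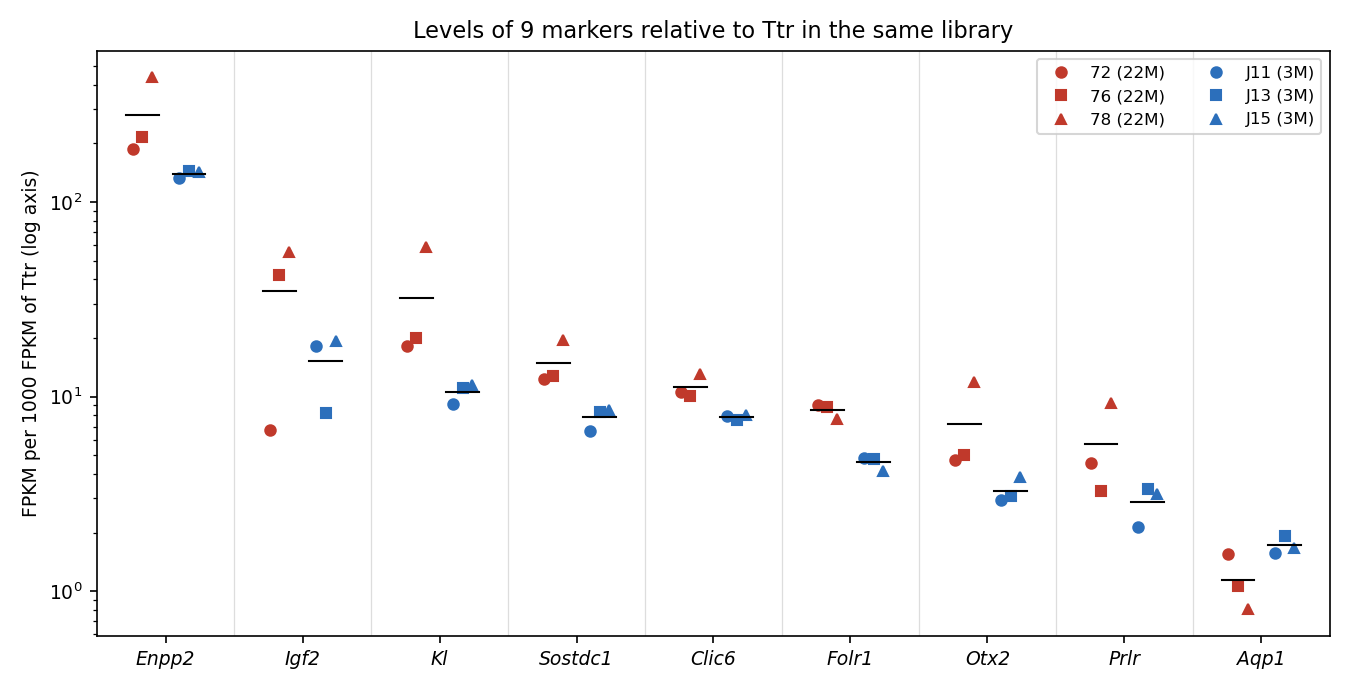
FPKM of 9 markers per 1000 FPKM of Ttr in the same library (log axis), with 22M in red at the left and 3M in blue at the right, each library as a point and the mean as a bar. Red points lie above all blue points for Enpp2, Kl, Sostdc1, Clic6, Folr1 and Otx2, below them for Aqp1, and overlap them for Igf2 and Prlr.

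The table split the members into 30 transcripts, with 1 each for Ttr, Kl, Clic6, Aqp1 and Sostdc1 and several for the other 5. How FPKM were divided between the transcripts of a gene varied between libraries of the same age, and 10 of the 30 were listed at 0 in at least 1 library. Enpp2-201, with 59.5% of the Enpp2 level on average, and Prlr-202, with 74.6% of that of Prlr, led their genes. The levels of the ages did not overlap for 3 of the 30 transcripts, against 25.9% of the 25409 transcripts in the table. All 3 were lower in 22M, against 14.1% of all transcripts, and they are described here after their values were seen.

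Otx2-201 was at 0.588 and 0.133 FPKM in 72 and 76 and listed at 0 in 78, against 2.46, 1.83 and 2.51 FPKM in J11, J13 and J15. Otx2-210 ran the other way, at 2.97 and 0.793 FPKM in 72 and 76 but listed at 0 in 78 and in every 3M library. So in 72, where the Otx2 level of the gene was highest, the transcript from the start site with the GGATTA shown above was lower than in any young library. Igf2-201, from the start site with 2 half-sites, was at 2.95, 3.92 and 2.03 FPKM in 72, 76 and 78, against 13.7, 6.83 and 17.2 FPKM in J11, J13 and J15. Igf2-204 was at 3.32, 31.4 and 1.62 FPKM in 22M, against 14.6 FPKM in J11 and a listed 0 in J13 and J15. The high Igf2 of 76 was thus assigned to Igf2-204 and that of J15 to Igf2-205 (29.3 FPKM) and Igf2-201. Folr1-201 was at 0.263, 4.42 and 0.320 FPKM in 22M, against 4.50, 4.80 and 6.06 FPKM in 3M, with the 76 value only just under the lowest young one. With the transcript most abundant on average, Folr1-201, in place of the sum, the log2 difference of Folr1 was -1.94, against -0.38 for the summed gene. That difference passed the study's thresholds but not the adjusted p (limma adjusted p = 0.199). In 72 this transcript was assigned 1.09% of the Folr1 level.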

How the data were processed

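Hippocampal mRNA was measured in 6 libraries, 3 of 22M and 3 of 3M. The authors deposited FPKM for 25409 protein-coding transcripts. The submitters' processing notes name HISAT2 and the build GRCm38 (mm10), while the quantifier is not given in the sources used here. FPKM were summed to 13321 genes, and the 13041 genes averaging 0.5 FPKM or more were fitted with limma 3.58.1 (R 4.3.3, trend, two-sided). The fit was on log2(FPKM + 0.5), where the added 0.5 understates changes of low genes. Benjamini-Hochberg adjustment was over all genes tested. The study's thresholds were P under 0.05 and a fold beyond 1.5. The fit was tested on simulated data. The members and all gene lists were chosen with earlier results of these data known. Named were the members, choroid plexus genes averaging 1 FPKM or more, up to 4 genes of each other list by p, and the 10 genes most like the members' mean. Other genes and transcripts were named after their values were seen. Alternatives were pseudocounts of 0.1 and 1, other filters, median-of-ratios scaling, quantile normalization, no trend, the highest transcript, a length and GC correction (splines with 4 degrees of freedom, 99.7% of transcripts matched) and leaving out libraries. Leaving out 72 and 78 together and the corrected ratios to Ttr were added after the data were examined. Promoter windows came from RefSeq (GRCm38.p6). Windows for the remaining members were not used here.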

Additional observations from a re-analysis of the deposited data

How the results depend on the processing

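The median log2 difference of the members ran from -1.25 without 72 to 0.32 without 78, and that of the other choroid plexus genes from -0.86 to 0.22, over all alternatives. Leaving out each library in turn, 0 to 3 members and 0 to 11 other choroid plexus genes were lower at the study's thresholds. Of all genes, 455 to 790 were lower at them. At the same thresholds 0 to 3 other choroid plexus genes were higher, and 448 to 654 of all genes. The adjusted p was passed by 2 to 546 of all genes (278 with all libraries). Without 72 and 78 together, 2 members and 7 other choroid plexus genes were lower, the median Pearson coefficient of the members was 0.69, and 1 gene of all passed the adjusted p. Without J11 and 78 together, 2 other choroid plexus genes were higher at the study's thresholds and 3 genes of all passed the adjusted p. With the highest transcript only, 1 member and 1 other choroid plexus gene (Folr1 and Stra6) were lower and 32 genes passed, by limma without a trend 37 passed, and with the length and GC correction 52 passed and 271 of all genes were lower at the study's thresholds (550 as deposited). The causes were not tested. No paired analysis was possible because the labels give no numbers shared between the ages. FPKM hold no counts, so no limit from depth can be given for low values such as Aqp1 in 78.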

Other observations

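Library 72 also held genes best known from the pineal gland and the retina, which were named after their values were seen. Tph1, the tryptophan hydroxylase of the pineal gland and the gut, was at 6.57, 0.494 and 0.12 FPKM in 72, 76 and 78, against 0.0303, 0.104 and 0.0565 FPKM in J11, J13 and J15. Crx, a homeodomain factor of photoreceptors and pinealocytes that is related to Otx2, was at 2.71 and 0.342 FPKM in 72 and 76 and listed at 0 in 78 and in every 3M library. Rbp3, a retinoid-binding protein of photoreceptors, was at 6.47, 0.656 and 0.127 FPKM in 22M, against 0.0134, 0.016 and 0.0586 FPKM in 3M. Pde6g, Sag and Gnb3 likewise had their highest level in 72, at 6.89, 2.78 and 2.67 FPKM. So did Chrnb4, a nicotinic receptor subunit gene not counted here as pineal or retinal, at 5.13 FPKM. Over these 7 genes 72 exceeded the next highest library by 4.05-fold (Sag) to 13.3-fold (Tph1). The pineal gland lies above the third ventricle, outside the hippocampus, and these values were not tested.

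Mfrp, a frizzled-related membrane protein, was at 11.9, 2.85 and 0.203 FPKM in 72, 76 and 78, against 3.87, 3.06 and 2.71 FPKM in J11, J13 and J15. Defb11, a beta-defensin, was at 7.42 and 1.87 FPKM in 72 and 76 and listed at 0 in 78, against 8.35, 5.49 and 8.28 FPKM in 3M. Both thus had the low level in 78 that the choroid plexus genes had, with Pearson coefficients of 0.93 and 0.92 with the mean of the members over the 6 libraries.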
